A study of Mus musculus with 103 samples.

Results

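The p38 kinases, the kinases that activate them and the Mapkapk kinases they activate were followed in mouse muscle stem cells of different ages. The group was taken by gene symbol and holds 9 genes of 43283 with an Ensembl identifier in the bulk table: the activating kinases Map2k3 and Map2k6, the p38 kinases Mapk14, Mapk11, Mapk12 and Mapk13, and the downstream kinases Mapkapk2, Mapkapk3 and Mapkapk5. The group was selected on 1 measured pattern, the bulk TPM of Mapkapk3, which was at 0 in young libraries only, so the bulk values of Mapkapk3 are a description with no test. The symbol Mapkapk5 labelled 2 table entries. The second carries the identifier of Gm42878, a gene model that overlaps Mapkapk5, and was kept apart.

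All cells came from untreated C57BL/6 mice and carry the label muscle stem cell. Myoblast is the word used in the design text. Bulk libraries were made from 3 young mice (3 months in the age field, 2 months in the description), 2 middle-aged mice (1 of 12 and 1 of 13 months in the age field, both 12 months in the design text) and 3 old mice (24 months). Single cells were read in 64 wells from 1 young mouse (3 months) and in 31 wells from 1 old mouse (24 months), so wells are not replicates of an age. The labels describe culture in a medium with FGF2 after isolation, but not at which point the RNA was extracted, and name no sort gate.

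p38 kinases are MAP kinases that respond to stress and cytokines. MKK3 and MKK6, the products of Map2k3 and Map2k6, switch them on by phosphorylating a threonine and a tyrosine in the activation loop. Active p38 then phosphorylates transcription factors and the kinases MK2, MK3 and MK5, encoded by Mapkapk2, Mapkapk3 and Mapkapk5, of which MK2 and MK3 act on proteins that control the decay of inflammatory mRNAs. In muscle stem cells, p38 alpha and beta signalling promotes activation and differentiation, and raised p38 activity has been tied to loss of self-renewal in old mice. Transcript levels measure none of this activity, which rests on phosphorylation.

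Genes at 1 TPM or more numbered 12849 to 17114 per bulk library, and mitochondrially encoded genes took 32.67% to 46.5% of TPM. The transcription factor Pax7, which marks these cells, stood at 308.37, 316.22 and 247.89 TPM in the young, 230.51 and 127.34 TPM in the middle-aged and 219.44, 246.47 and 185.2 TPM in the old. TPM is the share of a library that a transcript takes, scaled to a fixed total and corrected for transcript length, from which read depth cannot be recovered, so no counting error is attached to bulk values. Zeros were common: 9.62% to 20.47% of the genes whose mean reached 5 TPM were listed at 0 in a given library, with the highest share in young library 2. A value of 0 is therefore reported as listed at 0 and not as absence. In bulk RNA, fewer cells that express a gene and less RNA per cell cannot be told apart.

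Among the activating kinases, Map2k3 had the higher mean and varied widely between mice of 1 age. It was listed at 2.43, 45.08 and 7.88 TPM in the young, 30.36 and 21.97 TPM in the middle-aged, and 46.15, 5.16 and 16.32 TPM in the old. The young values alone spanned 18.6-fold and the old values 8.94-fold, and the groups overlapped. Old minus young, the difference on the log2(TPM + 1) scale was 0.61 (SE 0.97, 95% interval -1.53 to 2.76, limma adjusted p = 0.921). limma fits a linear model to every gene, and p-values were adjusted over all genes by the Benjamini-Hochberg method, with a threshold of 0.05. The difference was -0.24 without young library 1 and -0.12 without old library 1.

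Map2k6, whose product MKK6 shares the p38 kinases as substrates with MKK3, was a low transcript. It had 2.75, 0 and 6.28 TPM in the young, 0 and 3.75 TPM in the middle-aged, and 2.03, 8.27 and 6.13 TPM in the old. All old libraries held the transcript, while 1 young and 1 middle-aged library were listed at 0. The old minus young difference was 0.96 (SE 1.05, interval -1.37 to 3.29, limma adjusted p = 0.875), and 0.16 without young library 2. Map2k3 made up 38.42% to 100% of the summed TPM of both genes, and in young library 1 and old library 2 Map2k6 was the higher of the pair.

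Mapk14, which encodes p38 alpha, the form found in nearly every cell, was the main p38 transcript in every bulk library. Its values were 30.13, 13.11 and 14.3 TPM in the young, 7.22 and 25.07 TPM in the middle-aged, and 7.83, 28.99 and 18.12 TPM in the old. These ranges overlap at all ages. The old minus young difference was -0.14 (SE 0.66, interval -1.60 to 1.33, limma adjusted p = 1), with 0.22 without young library 1 and 0.34 without old library 1. The interval still allows a change of more than 1 log2 unit in either direction. A protein-coding gene model, AC170998.1, overlaps Mapk14 on the same strand, so reads could be split between them and the level is uncertain.

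Mapk12 encodes p38 gamma, the form known for its abundance in skeletal muscle. It was listed at 0 in all 3 young libraries, at 4.17 and 3.7 TPM in the middle-aged, and at 2.26, 3.04 and 6.63 TPM in the old. Every middle-aged and old library thus lay above every young one, at low values. With limma the gene passed the threshold in neither comparison (adjusted p = 0.802 for old against young and 0.58 for middle-aged against young), and no fold is given against a group at 0. Old and middle-aged values overlapped (difference -0.08, SE 0.93, adjusted p = 1; 0.17 without old library 1 and 0.02 without old library 2).

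The other p38 genes were hardly seen. Mapk11, which encodes p38 beta, was listed at 1.71 TPM in old library 1 and at 0 in the other 7 libraries. Mapk13, which encodes p38 delta, was listed at 0 in all 8, as were 37.6% of the entries with an Ensembl identifier. Neither reached the mean of 1 TPM needed for the test. On the mm10 assembly the 4 genes form 2 neighbouring pairs on the same strand. Mapk12 (chromosome 15, 89130584 to 89140703, minus strand) lies 1782 bases from Mapk11 (89142486 to 89149628), and Mapk14 (chromosome 17, 28691329 to 28748406, plus strand) lies 20890 bases from Mapk13 (28769297 to 28780233). In each pair 1 gene was measured in at least 5 libraries and its neighbour in at most 1.

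As a share of summed p38 TPM, Mapk14 made up 100% in each young library, 63.39% and 87.14% in the middle-aged, and 66.36%, 90.51% and 73.21% in the old libraries. Most of the rest was Mapk12, at 9.49% to 36.61% in the 5 middle-aged and old libraries. Mapk11 contributed 14.49% in old library 1 alone. These shares follow from the same values as the levels and add no independent measurement.

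**Figure D1:**
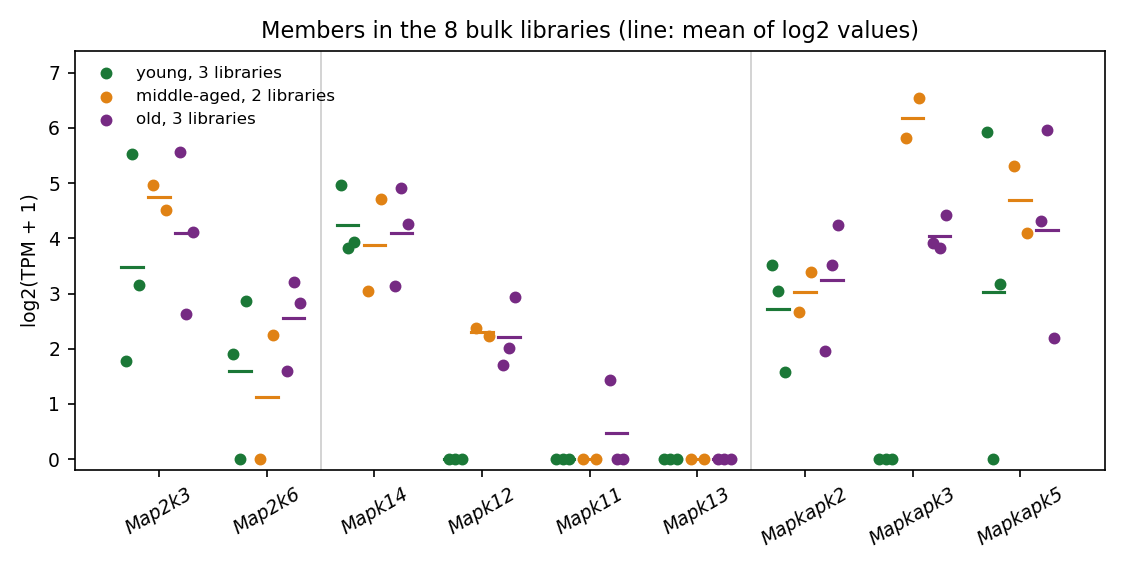
Level of each member as log2(TPM + 1) in the 8 bulk libraries, with 1 point per library and a line at the mean of each age group. Mapkapk3 and Mapk12 are at 0 in all young libraries and above 0 in all others, while points of the other tested genes overlap between ages.

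Downstream of p38, Mapkapk3 was the member whose 3 age groups did not overlap. MK3, its product, is a close relative of MK2 and shares many of its substrates. Mapkapk3 was listed at 0 in all 3 young libraries, at 55.56 and 92.16 TPM in the middle-aged, and at 14.05, 13.1 and 20.35 TPM in the old. The 3 groups were fully separate, in the order young, old and middle-aged. The lowest middle-aged value was 2.73-fold above the highest old value, and the mean of the middle-aged libraries 4.66-fold above that of the old. Within an age the values lay 1.66-fold apart in the middle-aged and at most 1.55-fold apart in the old libraries.

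Among 22492 genes whose mean reached 1 TPM, 108 (0.48%) were likewise listed at 0 in all 3 young and above 0 in all 5 other libraries. Mapkapk3 and Mapk12 were the members among them. The first was known when the group was chosen, and Mapk12 reached the mean of 1 TPM through the middle-aged and old libraries alone. Nothing is therefore read from the number of members. The reverse pattern, 0 in all 3 old libraries and above 0 in all others, was shown by 17 genes (0.0756%) and by no member. Among genes whose mean reached 5 TPM, 12.01%, 20.47% and 16.06% were listed at 0 in the young libraries. In the old libraries these shares were 15.54%, 9.62% and 10.55%, so the counts of both patterns are not set against each other. Values above 0 in all 8 libraries were found for 3 members, Mapk14, Map2k3 and Mapkapk2, and for 33.9% of the genes. Mapkapk3 spans 107254927 to 107289877 on the minus strand of chromosome 9, and no other annotated gene overlaps it there.

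Summed markers of other cells also had different ranges in the groups. Summed TPM of 8 macrophage markers was 26.8 to 47 in the young, 78 to 107.8 in middle-aged and 28.4 to 59.6 in old libraries. Within that list C1qa, C1qb and Cd14 were at 0 in both middle-aged libraries, and Lyz2, at 78.65 and 58.24 TPM, gave most of the sum. Of 4 macrophage markers tested, 3 were higher in middle-aged than in young libraries and 1, Ptprc, was lower. Ptprc had 5.38, 10.89 and 25.62 TPM in the young and 4.79 and 4.25 TPM in the middle-aged. Csf1r, a low transcript, had the order of ages of Mapkapk3. It was at 0 in all 3 young, 4.74 and 3.43 TPM in the middle-aged, and 1.05, 0.58 and 0.77 TPM in the old. Summed TPM of 6 lymphocyte markers was 4.2 to 27, 33.7 to 63.2 and 4.8 to 12.1, with Nkg7 at 0 throughout. Endothelial markers (8 genes) summed to 24.8 to 40.7, 55.9 to 94.4 and 41.8 to 70.8 TPM, with Tie1 and Cldn5 at 0 throughout. Of 6 endothelial markers tested, 5 were higher in middle-aged than in young libraries. The other, Tek, had 24.41, 15.25 and 7.2 TPM in the young and 10.73 and 7.61 TPM in the middle-aged. Pecam1 was at 41.86 TPM in middle-aged library 1 and at 3.23 TPM in library 2. All 3 sums were highest in middle-aged library 1. Between the 2 middle-aged libraries, Mapkapk3 and the summed Schwann cell markers given below were higher in library 2. Nothing is read from the order of 2 libraries. The endothelial sums of middle-aged and old libraries overlap. Schwann cell markers (11 genes, with Pmp2 at 0 in the young) were instead highest in the old, with 84.7 to 175, 183.8 to 407.9 and 448.6 to 1463.9 TPM. The part of these cells in the values of Mapkapk3 or Mapk12 was not tested.

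The regions just before the starts of Mapkapk3 and Mapk12 are shown because these genes shared the zeros in young libraries, with Mapk14, measured at every age, beside them. The sequences are from RefSeq (GRCm38.p6), read 5' to 3' on the strand of the gene, and end at the base before the first annotated exon. The first listed start of each gene is used, and Mapkapk3 and Mapk14 have a further start that is not shown. Capitals mark E-boxes, written CANNTG, a general form that includes the sites of MyoD and related myogenic factors. The middle letters were left free, so a marked stretch need not be a site of these factors.
Mapkapk3, chr9:107289878-107290127, minus strand: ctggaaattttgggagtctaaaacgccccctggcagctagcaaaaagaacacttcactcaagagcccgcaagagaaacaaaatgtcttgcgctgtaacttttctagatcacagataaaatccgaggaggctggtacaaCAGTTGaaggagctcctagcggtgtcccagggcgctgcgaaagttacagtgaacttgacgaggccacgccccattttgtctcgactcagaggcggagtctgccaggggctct
Mapk12, chr15:89140704-89140953, minus strand: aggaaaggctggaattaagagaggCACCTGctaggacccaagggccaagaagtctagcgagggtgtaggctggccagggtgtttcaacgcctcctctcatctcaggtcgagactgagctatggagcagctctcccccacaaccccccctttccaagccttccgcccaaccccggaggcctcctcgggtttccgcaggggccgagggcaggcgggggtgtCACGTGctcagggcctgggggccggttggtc
Mapk14, chr17:28691092-28691328, plus strand: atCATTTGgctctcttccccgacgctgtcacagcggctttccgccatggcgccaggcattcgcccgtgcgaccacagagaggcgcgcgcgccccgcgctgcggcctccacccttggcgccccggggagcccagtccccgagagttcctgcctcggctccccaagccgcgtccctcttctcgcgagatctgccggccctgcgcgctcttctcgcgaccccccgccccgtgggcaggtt

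The windows of Mapkapk3 and Mapk14 held 1 E-box each and that of Mapk12 held 2, and 66.2% of 32851 promoter windows of 250 bases held at least 1. The AP-1 motif TGANTCA was in none of the 3, and 6.7% of all windows held it. The GC box GGGCGG, searched on both strands, was found once each for Mapk12 and Mapk14 and not for Mapkapk3, against 32.7% of all windows. CG dinucleotides numbered 11, 11 and 30 in the 250 bases before the listed start, with a median of 6 over all windows. Such matches describe letters and say nothing of binding.

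Mapkapk2 encodes MK2, the main p38-activated kinase in many cells. It had 10.43, 7.27 and 1.98 TPM in the young, 5.34 and 9.48 TPM in the middle-aged, and 2.9, 10.5 and 18 TPM in the old. It was found in every library, with overlapping groups. The old minus young difference was 0.53 (SE 0.81, interval -1.26 to 2.33, limma adjusted p = 0.915), and -0.04 without young library 3. The gene models Gm25549 and Gm37084 overlap Mapkapk2 on the same strand, which leaves its level uncertain too.

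Mapkapk5 encodes MK5, also called PRAK, which the atypical kinases ERK3 and ERK4 bind as well. Its values were 59.65, 0 and 8.03 TPM in the young, 38.86 and 16.02 TPM in the middle-aged, and 18.84, 61.42 and 3.6 TPM in the old. Both a value near 60 TPM and one under 10 TPM occurred in young and in old mice. The old minus young difference was 1.13 (SE 1.35, interval -1.87 to 4.12, limma adjusted p = 0.882), and -0.39 without young library 2. The locus (chromosome 5, 121525038 to 121545905, minus strand) is crossed on the same strand by Gm42878, Adam1a and a processed pseudogene, so reads could be split between them and the level is uncertain. Gm42878 was at 2.41, 0 and 8.26 TPM in the young and at 0 in the other 5 libraries.

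Values of several members spread widely within an age. The residual SD of log2(TPM + 1) was 2.26 for Mapkapk5, 1.52 for Map2k3, 1.28 for Map2k6, 1.00 for Mapkapk2 and 0.87 for Mapk14, against a median of 1.16 over all genes tested. That SD was 0.41 for Mapk12 and 0.31 for Mapkapk3, which were at 0 in all 3 young libraries. The leading Mapkapk transcript differed by library. Mapkapk5 made up 85.12% and 80.22% of the summed Mapkapk TPM in the young libraries 1 and 3, and Mapkapk2 made up 100% in young library 2, where the sum was 7.27 TPM. Mapkapk3 made up 55.69% and 78.33% in the middle-aged libraries. In old libraries 1 and 2 Mapkapk5 led again, with 52.64% and 72.24%, and in old library 3 Mapkapk3 led with 48.51%.

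**Figure D2:**
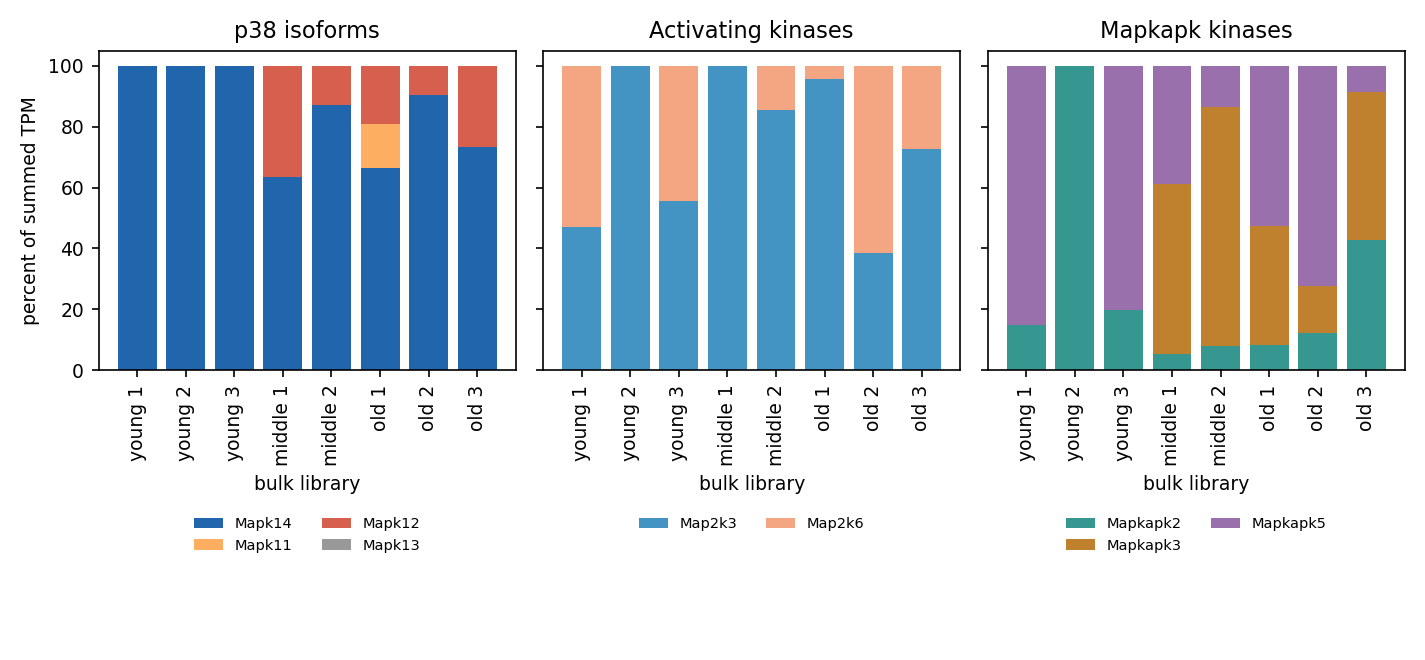
Percent of summed TPM given by each gene of the p38 kinases, their activating kinases and the Mapkapk kinases in every bulk library. Mapk14 fills the whole p38 bar in the young libraries, and the leading Mapkapk gene changes from library to library.

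Against all genes, the members other than Mapkapk3 gave no call between ages. For old against young, 0 of these 6 tested genes passed the limma threshold, as did 0 of 22492 genes (0%), with 837 genes higher (3.72%) and 488 lower (2.17%) by an unadjusted p under 0.05. At that threshold Mapk12 was the 1 member, higher in old libraries. Of the 6, 5 were higher and 1 lower in old libraries, beside 11152 higher and 10297 lower over all genes. Groups that do not overlap, with old above young, were found for 2 of 7 members tested, Mapk12 and Mapkapk3, and for 5.85% of genes. The reverse, old below young, held for 0 members and 4.16% of genes. Mapkapk3 was known to be separate when the group was chosen, and Mapk12 reached the mean of 1 TPM through the middle-aged and old libraries alone, so nothing is read from the count.

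For middle-aged against young, 0 of the 6 passed, with adjusted p from 0.58 for Mapk12 to 0.942 for Mapkapk2. Over all genes the threshold was passed by 1 of 22492 (0.00445%), and that gene was Mapkapk3. Nothing is read from this, since that contrast brought the gene to attention. The count was 0 when any 1 young or old library was left out, and 599 or 884 without middle-aged library 1 or 2, where the lone library left is assumed to vary like the others. At unadjusted p under 0.05, 1238 genes were higher (5.5%) and 512 lower (2.28%), with Mapk12 higher among the 6 members. Middle-aged values lay above all young values for Mapk12 and Mapkapk3 and for 12.6% of genes, and below all young values for 0 members and 5.37% of genes. As for old against young, nothing is read from these counts of Mapk12 and Mapkapk3, which were at 0 in the young and passed the minimum through the other libraries. Across all genes the median difference was 0.18 in this comparison and 0 after quantile normalization.

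For old against middle-aged, 0 of 6 members and 0 of 22492 genes (0%) passed in limma, with 526 genes higher (2.34%) and 866 lower (3.85%) by an unadjusted p under 0.05, and none of the 6 members among them. The count over all genes became 557 or 799 without middle-aged library 1 or 2. Mapkapk3 was the member whose old values all lay below the middle-aged ones, as 12.8% of genes did, and 0 members and 7.15% of genes lay wholly above them. Both comparisons with young share the young libraries and are not independent of each other.

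**Figure D3:**
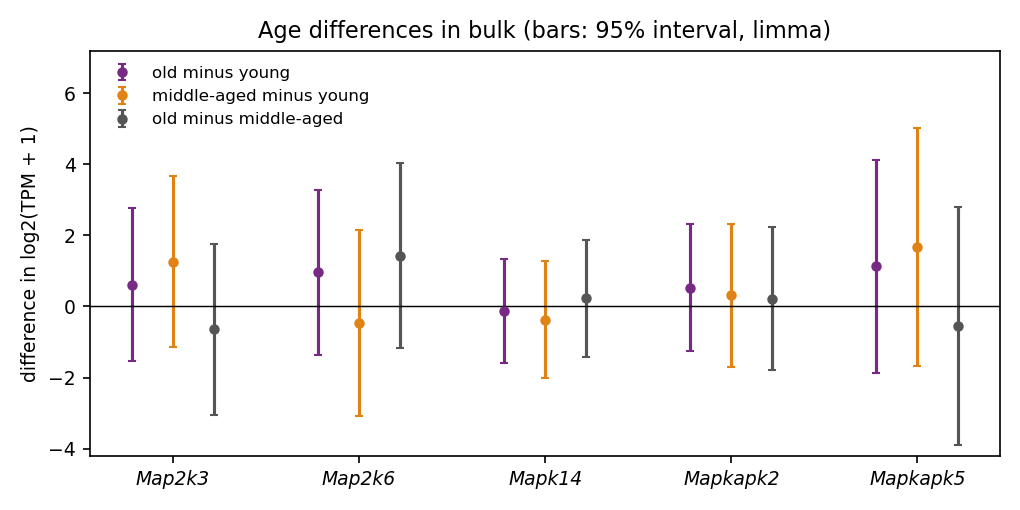
Differences in log2(TPM + 1) between ages for the 5 tested members that were found in all 3 age groups, with 95% intervals from limma. All 15 intervals cross 0, and those of Mapkapk5 are the widest.

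Levels of different genes can be set side by side because TPM is corrected for length. By mean over the 8 bulk libraries the order was Mapkapk5 (25.8 TPM), Mapkapk3 (24.4), Map2k3 (21.9), Mapk14 (18.1), Mapkapk2 (8.24), Map2k6 (3.65), Mapk12 (2.48), Mapk11 (0.214) and Mapk13 (0). Of 6 neighbouring pairs without Mapkapk3, compared within libraries by an exact two-sided sign-flip permutation test, 1 differed after adjustment. The pairs were set by the order of means in the same libraries, so the test gives no independent support for that order. Mapkapk5 was in no tested pair. Mapk14 was above Mapkapk2 in 8 of 8 libraries (1.10 log2 units, SD 0.72, n = 8, exact p = 0.0078, adjusted p = 0.0469), where 0.0078 is the smallest p that 8 libraries allow. Both genes are overlapped by other gene models, and the part of these in the difference was not tested. Mapkapk2 was above Map2k6 in 7 of 8 (1.16 units, exact permutation p = 0.0469, adjusted p = 0.125), and Map2k3 above Mapk14 in only 3 of 8 (exact permutation p = 0.938). The order at the top depends on the measure: by median, Map2k3 came first with 19.1 TPM, followed by Mapkapk5 with 17.4 and Mapk14 with 16.2.

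The wells of single cells differed greatly in content between the 2 mice. Synthetic spike-in RNA made up a median of 66.6% of TPM in the young wells and 95.6% in old wells. The median number of genes at 1 TPM or more was 1854 in young and 64 in old wells. At least 1000 genes were found in 54 of 64 young and 7 of 31 old wells, and in these the medians were 1934 and 1820 genes. The remaining 24 old wells held a median of 46 genes. Even Actb, which nearly every cell expresses, was seen in 90.62% of young and 35.48% of old wells, but in 98.15% and 100% of those with at least 1000 genes. Wells of the old mouse also carry other plate index names than those of the young, so age, mouse and plate position cannot be told apart.

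**Figure D4:**
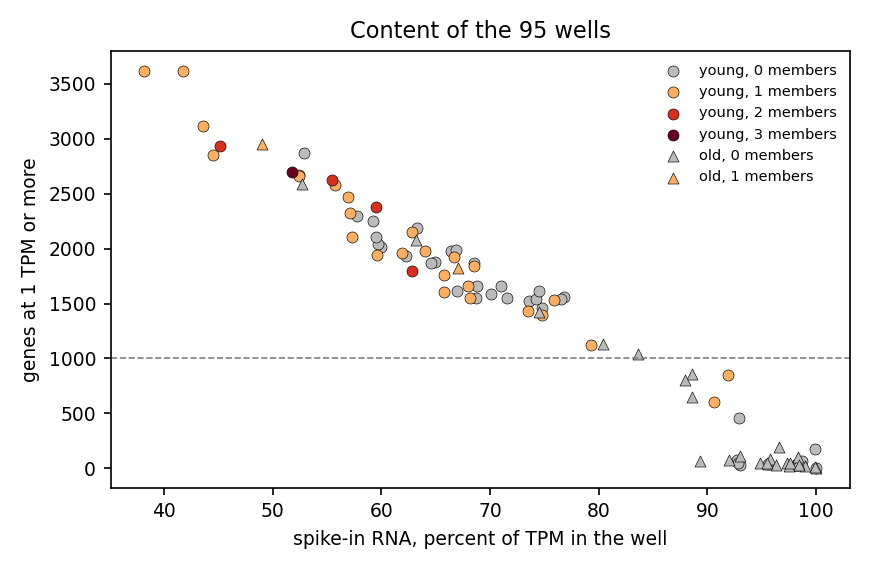
Genes found at 1 TPM or more in each of the 95 wells against the percent of TPM from spike-in RNA, with colour for the number of p38 and Mapkapk family genes found and shape for the age of the mouse. Most old wells sit at the lower right, below the dashed line at 1000 genes.

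In young wells these transcripts were detected mostly 1 at a time or not at all. Pax7, which marks these cells, was found in 39 of 64 young wells (60.94%), so a transcript not found in a well is not read as absent from the cell. At least 1 member at 1 TPM or more was found in 31 of 64 young wells, with 26 wells holding 1 member, 4 holding 2 and 1 holding 3. In that last well, Mapk14, Mapkapk3 and Mapkapk5 were found together. Wells with no member had a median of 1614 genes and those with 1 member 1951.5. Among young wells with at least 1000 genes these medians were 1868 and 1969.5, a smaller gap. A link between the number of members and the content of the well was not tested. Of 31 old wells, 2 held a member, both with at least 1000 genes.

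Map2k3 was the member found most often, in 12 of 64 young wells (18.75%, exact Clopper-Pearson 95% interval 10.08 to 30.46%, which covers counting of wells only). All 12 had at least 1000 genes, and values there ran from 1.44 over a median of 48.1 to 378.57 TPM. Map2k6 was in 0 of 64 young wells, which allows up to 4.69% when a count of 0 is taken to allow 3 wells, and the exact interval reaches 5.6%. It was in 1 of 31 old wells, at 29 TPM. That old well is 1 of the 7 with at least 1000 genes.

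Mapk14 was found in 8 of 64 young wells (12.5%, interval 5.55 to 23.15%), at 67.63, 80.17 and 120.87 TPM in 3 of them and under 3 TPM in the other 5. Only the high wells exceeded 10 TPM, which leaves 4.69% of wells at that threshold. Mapk12, listed at 0 in each young bulk library, was found in 3 young wells (4.69%, interval 0.98 to 13.09%) at 4.12, 32.19 and 93.32 TPM. Mapk12 was thus found in single cells of a young mouse, although it was listed at 0 in all young bulk libraries. Mapk11 and Mapk13 were in 0 of 64 young wells and 0 of 31 old wells. By the limit of 3 wells these zeros allow up to 4.69% and 9.68%, and the exact intervals reach 5.6% and 11.22%.

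Mapkapk5 was found in 8 of 64 young wells (12.5%), from 2.74 to 186.31 TPM with a median of 48.4. Mapkapk2 reached 1 TPM in 5 young wells (7.81%, interval 2.59 to 17.3%), was above 0 in 11, and exceeded 10 TPM in 1, at 65.54 TPM. An old well held it at 10.89 TPM. Mapkapk3 was found in 1 of 64 young wells (1.56%, interval 0.04 to 8.4%), at 18.68 TPM, and in 0 of 31 old wells at 1 TPM (exact interval up to 11.22%), with 0.65 TPM in an old well of 111 genes. Mapkapk3 was in the fewest young wells of the members found there. Its interval lies below that of Map2k3 and overlaps those of Mapk14, Mapk12, Mapkapk2 and Mapkapk5. Old wells set almost no limit: 0 of the 7 with at least 1000 genes allows up to 42.86% by the limit of 3 wells, and the exact interval reaches 40.96%.

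**Figure D5:**
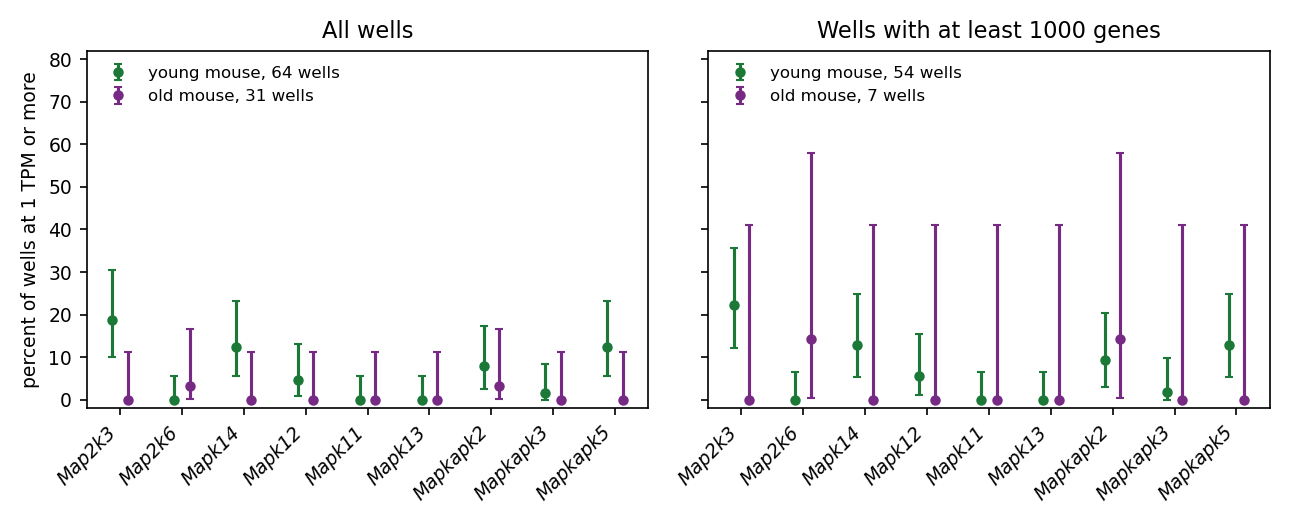
Percent of wells with each member at 1 TPM or more, with exact 95% intervals, for all wells and for wells with at least 1000 genes. Intervals of the old mouse are wide and overlap those of the young mouse for every member.

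Per 1000000 TPM without spike-ins, mean levels over the 54 young wells with at least 1000 genes were 41.5 for Map2k3, 29.6 for Mapkapk5, 13.4 for Mapk14, 4.83 for Mapk12, 4.33 for Mapkapk2 and 0.73 for Mapkapk3. Young bulk means were 18.5, 22.6 and 19.2 TPM for the first 3 of these and 6.56 TPM for Mapkapk2. The tables were scaled separately, so these levels are given side by side and not tested. In both, Map2k3, Mapkapk5 and Mapk14 were the members with the highest means. Others differed: Mapk12 was at 0 in young bulk, and Map2k6, at 3.01 TPM in young bulk, was at 0 in these wells. Single wells weighed heavily on the means, with Map2k3 at 902.19 in 1 well and Mapkapk5 at 791.17 in another. Single young bulk libraries did so too. Map2k3 had 2.43, 45.08 and 7.88 TPM there and Mapkapk5 had 59.65, 0 and 8.03 TPM. The 0 of Mapkapk3 in young bulk was known when the group was chosen, so nothing is read from its low level in both.

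Genes that feed into p38 gave no call in any comparison between ages. Of 12 kinases and adaptors upstream of MKK3 and MKK6, such as TAK1 and ASK1, 12 were tested and 0 passed limma in old against young; 8 were higher and 4 lower, with a median difference of 0.15. The most abundant were the adaptor Tab2, with 62.95 ± 13.57 TPM in the young and 93.34 ± 17.26 TPM in the old (SD, n = 3 each; difference 0.57, adjusted p = 0.839), and the kinase Taok1, which ranged from 35.91 to 77.58 TPM in the young and from 44.71 to 83.96 TPM in the old. At unadjusted p under 0.05, 2 were higher, Map3k6 (3.82 ± 1.47 and 18.25 ± 8.22 TPM, adjusted p = 0.744) and Taok2 (5.3 ± 2.82 and 14.72 ± 4.11 TPM, adjusted p = 0.831), named after their values were seen. Over all genes 3.72% were higher at that threshold. Of 10 scaffolds and surface inputs, 0 passed, with 6 higher and 4 lower (median 0.16) and 0 at unadjusted p under 0.05. The heparan sulphate receptor Sdc4 had 271.49 ± 55.96 and 357.74 ± 16.52 TPM, and the FGF receptor Fgfr1 183.42 ± 43.21 and 198.37 ± 53.52 TPM.

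Among phosphatases that switch p38 off, 1 stood far above the kinases in level. Dusp1, which strips both phosphates from p38, had 746.83 ± 91.76 TPM in the young, 766.81 ± 249.13 TPM in the middle-aged and 926.16 ± 87.34 TPM in the old (old minus young 0.31, limma adjusted p = 0.839). Mapk14 averaged 18.1 TPM over the same libraries. Ppm1a, the next of 8 phosphatases in abundance, had 22.32 ± 7.1 and 31.39 ± 7.53 TPM in the young and old. Of the 8, 7 were higher and 1 lower in old libraries, and 0 passed, also at unadjusted p under 0.05. Their median difference was 0.49, beside 0 over all genes.

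Targets of the pathway also gave 0 calls in old against young. Of 14 transcription and chromatin substrates of p38, 6 were higher and 8 lower (median -0.07) and 0 had an unadjusted p under 0.05, with Atf1 at 104.0 ± 10.68 and 87.31 ± 30.89 TPM and Elk4 at 96.83 ± 58.32 and 74.28 ± 10.27 TPM. Of 10 substrates of MK2 and MK3, 5 were higher and 5 lower (median 0.10). At unadjusted p under 0.05 the actin-binding protein gene Lsp1 was higher (1.67, adjusted p = 0.798) and Zfp36l2 lower (-0.99, adjusted p = 0.703), both named after their values were seen. Over all genes 3.72% were higher and 2.17% lower at that threshold. The list includes the mRNA decay factors Zfp36 (2567.5 ± 417.34 and 3261.85 ± 839.62 TPM) and Zfp36l1 (2903.71 ± 1264.5 and 1696.54 ± 854.51 TPM; difference -0.81, adjusted p = 0.839). Among the other kinases that p38 activates, 3 of 4 were tested and 0 passed, also at unadjusted p under 0.05 (median -0.50). Mknk2, which phosphorylates a translation initiation factor, had 12.87 to 20.23 TPM in the young, 25.27 and 29.7 TPM in the middle-aged, and 9.4 to 14.45 TPM in the old. Like Mapkapk3, it was highest in both middle-aged libraries (old minus middle-aged -1.20, limma adjusted p = 0.724). Mknk1 had 4.11 to 26.77 TPM in the young, 2.68 and 44.63 TPM in the middle-aged and 0 to 8.36 TPM in the old.

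Genes whose pattern over the 8 bulk libraries was most like that of 3 members were listed, by Pearson r of log2(TPM + 1) among 11735 genes whose mean reached 5 TPM. The libraries share 3 age groups, and the 5 highest of so many genes are given as a description. For Mapkapk3 they were Whsc1l1 (r = 0.97), Osmr (0.967), Trib1 (0.96), Ptk2 (0.957) and Fam65a (0.955). Whsc1l1 had 44.03 to 46.95 TPM in the young, 64.76 and 68.26 TPM in the middle-aged and 55.59 to 65.74 TPM in the old. Its old and middle-aged values overlap. Osmr encodes the oncostatin M receptor. It had 11.71 to 19.25 TPM in the young, 109.4 and 113.36 TPM in the middle-aged and 43 to 61.14 TPM in the old. That Osmr shares the order of ages of Mapkapk3 follows from how it was picked. Trib1, a pseudokinase, had 39.78 to 45.48, 267.33 and 347.96, and 95.02 to 128.68 TPM. For Mapk14 they were Slc48a1 (0.971), Oard1 (0.903), Gm10800 (0.903), Paip2b (0.898) and Gm13579 (0.893), and for Mapkapk2 Foxp4 (0.967), Lrrc45 (0.951), Gnpda1 (0.941), Slc35b4 (0.93) and Nek4 (0.929).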

How the data were processed

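RNA sequencing was measured in 8 bulk libraries and 95 wells. The authors deposited both tables as TPM, per the labels. Reads were aligned with STAR to mm10, per the submitters' processing notes, which give no version. Neither labels nor headers state the annotation, the strandedness or how alignments became TPM. The bulk table held 45798 entries, of which 43283 with an Ensembl identifier were used, and the wells 45797 and 43282. Entries without one held 0.72% to 1.17% of bulk TPM, and in the wells they were mainly spike-in RNA. Depth cannot be read from TPM.

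Groups came from the labels. limma 3.58.1 in R 4.3.3 was run on log2(TPM + 1) for 22492 genes whose mean TPM reached 1, in 1 fit of all 8 libraries with a mean per age and an intensity trend, with Benjamini-Hochberg adjustment over all genes and a threshold of 0.05. A fold on this scale understates changes of low genes. The design text gives separate mice. The fit was tested on simulated data, with changes placed only in genes above a low level. That run says nothing of low members such as Mapk12 and Map2k6, and no support is drawn from it. Gene positions came from GENCODE vM21 (mm10), which held 42782 of the identifiers. Promoter sequences came from RefSeq tables, with at least 1 entry for all 9 members. Python 3.11.15, scipy 1.17.1 and pandas 2.3.3 were used for the rest.

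The members and lists were chosen with earlier results of these data known. The named genes were the 9 members, the 2 most abundant genes of each pathway list and any called by limma, and the 5 most like Mapk14, Mapkapk2 and Mapkapk3. Lists of markers for 9 cell types were also fixed. For the lists not given in the report, summed TPM follows for young, middle-aged and old libraries in that order. Muscle stem cell markers had 1532.5 to 1647.4, 1380 to 1702.4 and 1145.4 to 1741.5. Of these 10 markers, 1 was higher and 9 lower in middle-aged than in young libraries. Tenocyte markers had 786.9 to 1164.9, 504.9 to 783.6 and 438.6 to 712.7, mostly from Chodl. Chodl had 757.8 to 1142.29 TPM in the young and 350.57 to 627.66 TPM in the old. Of 7 tenocyte markers tested, 6 were higher and 1 lower in old than in young libraries, and 5 higher and 2 lower in middle-aged. Fibroblast markers had 842.9 to 936, 799.8 to 819.9 and 923.6 to 1362.1. Of 9 tested, 6 were higher and 3 lower in middle-aged than in young libraries. Sums were 534.1 to 694.3, 585.1 to 760.9 and 476.1 to 967.2 for smooth muscle. For muscle fibres they were 7.5 to 38.2, 6.2 to 38 and 38.7 to 67.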

Additional observations from a re-analysis of the deposited data

How the results depend on the processing

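Between old and young, limma called 0 genes under all 16 alternatives. Between middle-aged and young the single call became 7 with a pseudocount of 0.1, 0 with one of 5, 2 with a mean of at least 5 TPM, 0 with no filter, 12 without the intensity trend, 0 without mitochondrially encoded genes and 5 after quantile normalization. Leaving out 1 library gave 0 to 884, and the high counts (884 and 599) came without a middle-aged library, where the lone one left is assumed to vary like the other groups. Between old and middle-aged the count of 0 became 6 with a pseudocount of 0.1 and 1 after quantile normalization, and 0 to 799 without 1 library.

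With the replicate number as a block, 0 genes were called between middle-aged and young, and 0 in the other comparisons. The numbers do not pair the mice: same-numbered libraries correlated at -0.012 to 0.005 after removal of group means.

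No tested member other than Mapkapk3 passed under any alternative, and Mapk12 and Map2k6 were not tested with a mean of at least 5 TPM. For Mapk12 the adjusted p without 1 library ranged from 0.236 to 0.95 for old minus young and from 0.172 to 0.676 for middle-aged minus young. Old minus young without 1 library ranged from -0.54 to 0.34 for Mapk14, -0.24 to 1.63 for Map2k3, -0.036 to 1.17 for Mapkapk2 and -0.39 to 2.57 for Mapkapk5. Middle-aged minus young ranged from -1.20 to 0.47 for Mapk14, -1.59 to 0.66 for Map2k6 and -0.25 to 0.72 for Mapkapk2, which was -0.21 after quantile normalization. Old minus middle-aged ranged from -0.60 to 1.06 for Mapk14, -1.38 to 0.0905 for Map2k3, -0.28 to 0.86 for Mapkapk2, -1.45 to 0.43 for Mapkapk5 and -0.44 to 0.17 for Mapk12, which was 0.46 after quantile normalization. The cause was not tested. Rescaling wells without spike-in RNA was an alternative chosen after seeing the data; shares of wells stayed within their intervals except at 10 TPM for Mapk14 (4.69%) and Mapkapk2 (1.56%) in young wells.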

Other observations

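MAP kinases outside the p38 group were measured in the same bulk libraries. The ERK1 gene Mapk3 had 0 to 60.23 TPM in the young, 41.46 and 43.61 TPM in the middle-aged and 52.26 to 113.04 TPM in the old, and Mapk6, which encodes the MK5 partner ERK3, 13.13 to 42.5, 40.66 and 48.67, and 26.56 to 64.26 TPM. Of 8 other MAP kinases tested, 5 were higher and 3 lower in old than in young libraries, and limma called 0, with 0 at unadjusted p under 0.05. All 5 other MAP kinase kinases were higher in old libraries on the log2(TPM + 1) scale, again with 0 calls by limma and 0 genes at unadjusted p under 0.05, and their median difference was 0.38 beside 0 over all genes. Map2k4, which can activate both JNK and p38, had 33.62 ± 25.19 TPM in the young and 30.56 ± 8.86 TPM in the old (SD, n = 3 each), a lower mean TPM but a log2 difference of 0.31. Map2k2, an activator of ERK, had 14.42 ± 8.8 and 29.74 ± 4.48 TPM, and 0 and 19.26 TPM in the middle-aged libraries. Among the 3 RSK kinases, Rps6ka3 led with 66.7 ± 8.74 TPM in the young and 60.29 ± 7.34 TPM in the old.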
